A study of Mus musculus with 3 samples.

Results

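Genes that mark the mural cells of blood vessels, the pericytes and the vascular smooth muscle cells, were examined in RNA recovered with tagged endothelial ribosomes from the mouse heart. The 10 genes were chosen by symbol as known markers of these cells. Pdgfrb, Rgs5, Kcnj8, Abcc9, Cspg4 and Higd1b were taken as the 6 pericyte genes and Acta2, Tagln, Myh11 and Cnn1 as the 4 smooth muscle genes, and all 10 were found among the 17583 genes of the deposited table. The EC-RiboTag mice carry Cdh5-CreERT2, a Cre recombinase that is driven by the promoter of the VE-cadherin gene Cdh5 and activated by tamoxifen, together with Rpl22tm1.1Psam, an allele that gives recombined cells a hemagglutinin-tagged ribosomal protein, on a C57BL/6 background. The 3 libraries are biological replicates of 1 condition, and the age of these animals was not given in the labels. By the labels the hearts were taken at day 7 after myocardial infarction by coronary ligation. The study describes EC-RiboTag RNA both without mention of an infarction and, for PCR, from the remote zone (abbreviated RZ), border zone and infarct zone at this day after infarction. The titles of the libraries contain "Rz" without an explanation, so a remote zone origin is possible but is not stated. The tag is limited to cells in which the Cdh5 driver is active, and no input or control library was analysed here. The values are therefore levels in the immunoprecipitate, and the cell from which a transcript came cannot be told from them.

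Mural cells wrap the endothelial tube. Pericytes sit within the basement membrane of capillaries and are recruited by platelet-derived growth factor B, which endothelial cells secrete and which binds the receptor encoded by Pdgfrb. Smooth muscle cells surround arteries, arterioles and larger veins, and their contractile proteins include the products of Acta2, Tagln, Myh11 and Cnn1. The heart is rich in capillaries, and its pericytes are known for an ATP-sensitive potassium channel built from the products of Kcnj8 and Abcc9.

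The deposited values, called normalized counts here, are reads per gene that the authors scaled by size factors and rounded. Their sums were 7149102, 7158585 and 7268785 for mice 1, 2 and 3. Gaps and doublings that rounding leaves among low values gave an estimate of what 1 read was worth, 0.977, 1.06 and 0.961 normalized counts in mice 1, 2 and 3, and of about 7319000, 6755000 and 7565000 reads. To compare genes with each other, the normalized count was divided by the length of the canonical transcript in kilobases (kb). Duplicate reads had been removed by the authors, which limits a transcript to about 1 read per base, so that levels near this limit, and differences between mice there, may be compressed. Mouse 1 stood apart in sex-linked genes. Xist, the RNA of the inactive X chromosome, had 4, 618 and 869 normalized counts in mice 1, 2 and 3, and Ddx3y, a gene of the Y chromosome, had 1080, 3 and 1. The labels give no sex, and results that separate mouse 1 from the other mice cannot be told apart from this difference.

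The labelled cell type was checked with 12 endothelial genes. Cdh5 had 2808, 2860 and 2930 normalized counts in mice 1, 2 and 3, or 712.8 ± 15.2 per kb (SD, n = 3), and Pecam1, an adhesion receptor of endothelial junctions, had 746.5 ± 25 per kb. Eng, a co-receptor for transforming growth factor-beta, was the highest of the list with 809.4 ± 5.82 per kb, and Vwf, which encodes von Willebrand factor, was the lowest with 259.7 ± 78.8 per kb. All 12 endothelial genes were thus present at high levels. The median of the endothelial list was 693.6, 670.4 and 651.7 per kb in mice 1, 2 and 3. The median of the 10 mural genes was 31.6, 38.3 and 45.5 per kb, and that of all 17475 genes with a known length, taken over their means, was 73.0 per kb. The mural genes were far below the endothelial genes in every mouse, with a log2 ratio of medians of -4.46, -4.13 and -3.84, or -4.14 ± 0.31 (SD, n = 3), which is 17.7-fold lower. Per base, the median was 0.688 for the endothelial genes, near the limit of duplicate removal, and 0.0418 for the mural genes, so the ratio before that step is not known. In these bulk libraries, fewer cells of a type and less RNA per cell cannot be told apart.

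Rgs5, which encodes a regulator that shortens G protein signalling, was the most abundant pericyte gene. It had 542, 615 and 505 normalized counts in mice 1, 2 and 3, a mean of 554 ± 56.0 (SD, n = 3), and 134 ± 13.6 per kb. It was similar in the 3 mice and lay above 64.7% of all genes per kb. Abcc9, which encodes the sulfonylurea receptor SUR2, had normalized counts of 383, 301 and 396, and 48.3 ± 6.90 per kb. Pdgfrb, the receptor for platelet-derived growth factor B, had 212, 254 and 280, and 46.0 ± 6.35 per kb. The 2 genes had similar levels per kb, and Pdgfrb was lowest in mouse 1 and highest in mouse 3. Kcnj8, which encodes the pore subunit Kir6.1, had normalized counts of 138, 85 and 119, and 37.5 ± 8.84 per kb. Cspg4, which encodes the proteoglycan NG2, had 134, 295 and 186, and 25.1 ± 10.1 per kb. Cspg4 stood highest in mouse 2, where Kcnj8 was lowest. Higd1b, which encodes a mitochondrial protein of the HIG1 family and marks pericytes of the heart and lung, had normalized counts of 9, 17 and 17, and 12.4 ± 3.99 per kb. At these low values the counting error is wide, since the 9 reads implied in mouse 1 have an exact 95% Poisson interval of 4.12 to 17.1 reads and the 18 in mouse 3 an interval of 10.7 to 28.4 reads. These intervals overlap, and they cover counting error only.

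Tagln, which encodes the actin-binding protein SM22-alpha, was the most abundant smooth muscle gene. It had 103, 206 and 338 normalized counts in mice 1, 2 and 3, and 130.6 ± 71.3 per kb (SD, n = 3). Mouse 3 was 3.28-fold above mouse 1. Acta2, the smooth muscle alpha-actin gene, had normalized counts of 67, 128 and 210, and 48.4 ± 25.7 per kb. It too was lowest in mouse 1 and highest in mouse 3, by 3.13-fold. Myh11, which encodes the smooth muscle myosin heavy chain, had normalized counts of 31, 118 and 240, and 19.8 ± 16.0 per kb. The difference between mouse 3 and mouse 1 was 7.74-fold, the widest among the 9 members other than Cnn1, and without mouse 3 its mean fell from 129.7 to 74.5 normalized counts. Cnn1, which encodes calponin 1 and is a marker of mature smooth muscle, had normalized counts of 1, 4 and 12, and 2.33 ± 2.34 per kb. In mouse 1 this was 1 read, with an exact 95% Poisson interval of 0.0253 to 5.57 reads, against an interval of 6.20 to 21.0 reads for the 12 reads in mouse 3, and without mouse 3 its mean was 2.5 in place of 5.67 normalized counts. Cnn1 was thus close to the floor of the table, which lists only genes that reach at least 4 in some library.

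**Figure D1:**
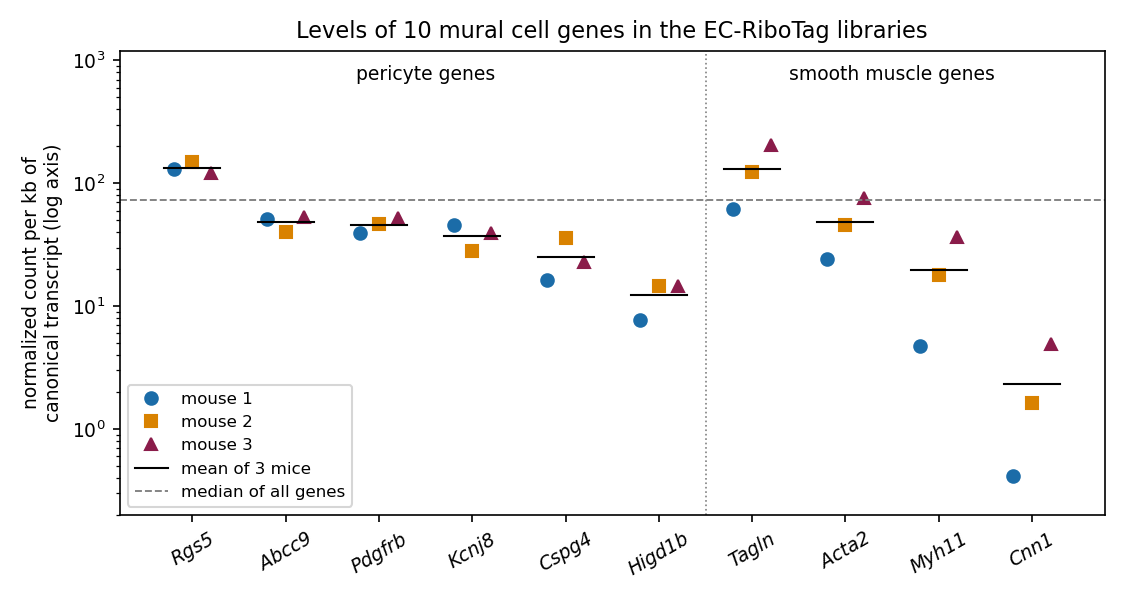
Level of the 10 mural genes, as normalized count per kb of canonical transcript on a log axis, with a symbol for each of the 3 mice, a bar at the mean and a dashed line at the median of all genes (73.0 per kb). Rgs5 and Tagln have means above the dashed line, and the symbols of the 4 smooth muscle genes are spread more widely than those of most pericyte genes.

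The pericyte and smooth muscle genes were compared within each mouse. The median of the 6 pericyte genes was 42.3, 38.3 and 45.5 per kb in mice 1, 2 and 3, and that of the 4 smooth muscle genes was 14.4, 32.0 and 56.0 per kb. The pericyte median was the higher in mice 1 and 2 and the lower in mouse 3. The log2 ratio of pericyte to smooth muscle medians was 1.56, 0.26 and -0.30, or 0.51 ± 0.95 (SD, n = 3), so the mean ratio was smaller than the spread between mice. Without mouse 1 it was -0.02, and without mouse 3 it was 0.91. The sign of this ratio is therefore not settled by these 3 mice. Relative to the endothelial median, the log2 ratio of the pericyte median was -4.03, -4.13 and -3.84 in mice 1, 2 and 3, and that of the smooth muscle median was -5.59, -4.39 and -3.54. Only the latter differed by more than 1 log2 unit between mice.

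The groups differed in how their summed level varied between mice. The normalized counts of the 6 pericyte genes summed to 1418, 1567 and 1503 in mice 1, 2 and 3, with a coefficient of variation (CV) of 5.00%. Those of the 4 smooth muscle genes summed to 202, 456 and 800, with a CV of 61.8%. The median CV of single genes was 18.9% for the pericyte and 67.8% for the smooth muscle members. The pericyte sum, which Rgs5 and Abcc9 carry, was nearly level, and the smooth muscle sum was 2.26-fold higher in mouse 2 and 3.96-fold higher in mouse 3 than in mouse 1. All 4 smooth muscle genes were lowest in mouse 1 and highest in mouse 3, whereas Pdgfrb was the only gene among the 6 pericyte genes with that order. This order was found in 16.0% of the 10951 genes with a mean normalized count of 100 or more. Cnn1 and Higd1b are below that mean, and the rule followed the values, so nothing is read from these counts. The sum of the endothelial list was 29239, 28097 and 29358 in the same mice, with a CV of 2.41%, at levels near the limit of duplicate removal. No test of the difference between the groups was made, because the members were chosen with earlier results known and 3 mice of 1 condition allow no comparison of conditions.

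**Figure D2:**
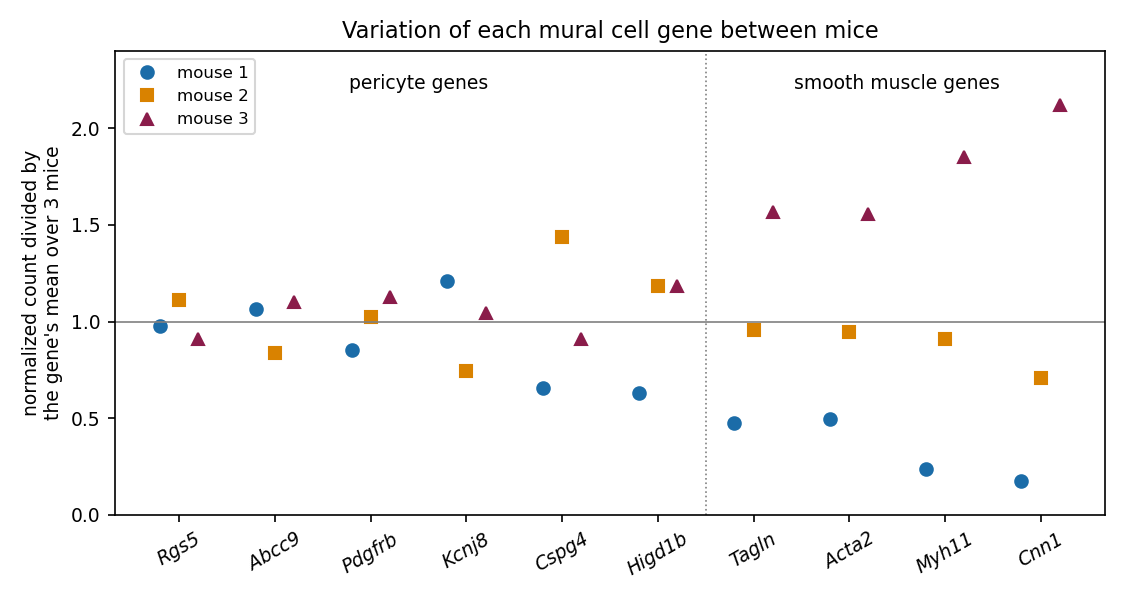
Normalized count of each mural gene in each of the 3 mice, divided by the mean of that gene over the mice, on a linear axis. The 4 smooth muscle genes are each lowest in mouse 1 and highest in mouse 3, and the 6 pericyte genes have no common order.

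The spread of single members was set against that of the whole table. A mean of 200 or more was reached by 9358 genes, of which 8.00% had a CV over 20%, and 2 of the 5 members above this mean, Cspg4 with 40.1% and Tagln with 54.6%, were among them. Both reach this mean only through the mouse in which they are highest, since the mean of Cspg4 was 160.0 without mouse 2 and that of Tagln 154.5 without mouse 3, so nothing is read from this count. Rgs5, Abcc9 and Pdgfrb had CVs of 10.1%, 14.3% and 13.8%, against a median of 7.37% for these 9358 genes. The number of genes over the limit, 749, was 455 without mouse 1, 921 without mouse 2 and 812 without mouse 3, and leaving out mouse 2 or mouse 3 left 1 member over it. A mean of 100 or more was reached by 10951 genes, of which 11.6% had a CV over 20%, and 5 of the 8 members above this mean did, namely Kcnj8, Cspg4, Acta2, Tagln and Myh11. Acta2 and Myh11 reach this mean only with mouse 3 included, since their means without it were 97.5 and 74.5, so nothing is read from this count either. Higd1b and Cnn1 did not reach a mean of 100. Beside the 500 genes nearest in mean, Myh11 had a CV of 81.0% against a median of 15.1%, Acta2 of 53.2% against 14.7%, and Tagln of 54.6% against 10.8%. Among the pericyte genes, Cspg4 was also far above its nearest genes, with 40.1% against 11.04%. Abcc9 had 14.3% against 8.88%, Pdgfrb 13.8% against 10.2%, Rgs5 10.1% against 7.51%, Kcnj8 23.6% against 17.0% and Higd1b 32.2% against 30.3%. All 9 of these members varied more than the median of their nearest genes, by little for Higd1b. Many genes exceed such a median by definition, and the share of all genes that do was not counted, so nothing is read from this count. The CV that counting alone would give was 8.78% for Myh11, 8.61% for Acta2 and 6.81% for Tagln, below the CVs measured. For Higd1b, counting alone would give 26.4%, near the measured CV of 32.2%. Separate animals are expected to vary beyond counting error, so a larger CV says nothing about its source.

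The direction of the spread was also set against the table, by rules chosen after the values had been seen. Of these 10951 genes, 16.0% were lowest in mouse 1 and highest in mouse 3, as were 4 of the 8 members above this mean, Pdgfrb, Acta2, Tagln and Myh11. Of the same genes, 1.65% were at least 2-fold higher in mouse 3 than in mouse 1, as were 3 of the 8 members, Acta2, Tagln and Myh11. The same limit on Acta2 and Myh11 holds for these counts, and the rules followed the values, so nothing is read from them.

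Markers of other cell types were measured in the same libraries. The 10 cardiomyocyte genes had a median of 590.2 ± 16.4 per kb (SD, n = 3), a log2 ratio of -0.19 ± 0.02 to the endothelial list, and summed to 22024, 22611 and 25572 normalized counts in mice 1, 2 and 3. Ttn, with 7379, 7743 and 10190, and Ryr2, with 3280, 3667 and 4486, carry the higher sum in mouse 3. The median of the list did not rise, with 609.1, 580.8 and 580.6 per kb in mice 1, 2 and 3. Myl2, a ventricular myosin light chain gene, was the most abundant cardiomyocyte gene per kb with 819.2 ± 78.5. Cardiomyocyte genes were thus far above the mural genes. How they compare with the endothelial genes cannot be read from these values, because the medians of both lists, 0.582 and 0.688 per base, are near the limit of duplicate removal. The 8 fibroblast genes had a median of 83.9 ± 17.4 per kb and summed to 2881, 3444 and 3767. Lum, which encodes the matrix proteoglycan lumican, was the most abundant of them with 187.7 ± 62.8 per kb. The 7 leukocyte genes, led by the complement gene C1qa with 137.7 ± 12.2 per kb, had a median of 27.8 ± 8.58 per kb and summed to 588, 836 and 823. The fibroblast and leukocyte sums were lowest in mouse 1, as the smooth muscle sum was, and were 1.31-fold and 1.40-fold higher in mouse 3 than in mouse 1. Abundant genes carry these sums, and some low genes differed more. The fibroblast gene Tcf21 had normalized counts of 16, 29 and 45, and the leukocyte genes Adgre1 and Itgam had 20, 41 and 48 and 16, 31 and 32, so that mouse 3 was 2.81-fold, 2.4-fold and 2-fold above mouse 1. All 8 fibroblast genes and 6 of the 7 leukocyte genes were higher in mouse 3 than in mouse 1. Of the 10 cardiomyocyte genes 4 were higher in mouse 3, and of the 12 endothelial genes 3 were. A higher level in mouse 3 was thus not limited to the smooth muscle genes. The share of all genes with this direction was not counted, so nothing more is read from these counts. The 3 mesothelial genes, led by Krt19 with 46.5 ± 25.3 per kb, summed to 53, 122 and 156 normalized counts, 2.94-fold higher in mouse 3 than in mouse 1. None of the genes of these lists was at 0 in any mouse, and their part in the spread of the smooth muscle genes was not tested. Vwf, which is richest in the endothelium of larger vessels, had normalized counts of 1898, 1886 and 3098 and was highest in mouse 3.

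Per kb, the mean levels of the members had the order Rgs5, Tagln, Acta2, Abcc9, Pdgfrb, Kcnj8, Cspg4, Myh11, Higd1b and Cnn1. Pericyte and smooth muscle genes were intermixed in this order, and most neighbours could not be separated. Of the 9 neighbouring pairs by canonical transcript, 2 kept their order in every mouse, and 3 had means further apart than the larger SD of the pair. Tagln exceeded Acta2 by a log2 ratio of 1.42 ± 0.04 (SD, n = 3), 2.68-fold, the steadiest ratio of neighbouring members although each gene varied over 3-fold between mice. Higd1b exceeded Cnn1 in each mouse, at values too low for a useful ratio. Kcnj8 and Cspg4 were further apart than the larger SD but changed order in mouse 2. The neighbours Rgs5 and Tagln, Acta2 and Abcc9, Abcc9 and Pdgfrb, Pdgfrb and Kcnj8, Cspg4 and Myh11, and Myh11 and Higd1b did not differ beyond their spread. With 3 mice the smallest two-sided p of an exact sign-flip permutation test is 0.25, which was reached by the pairs of Tagln with Acta2 and of Higd1b with Cnn1, and no pair could reach 0.05. Rgs5 took place 1 in mice 1 and 2, Tagln took place 1 in mouse 3, and Cnn1 took place 10 in each mouse.

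The platelet-derived growth factor genes place Pdgfrb beside its ligands. Pdgfb, the ligand that recruits pericytes, had 2086, 2026 and 2017 normalized counts in mice 1, 2 and 3, and 655.6 ± 12.0 per kb (SD, n = 3). Ligand RNA was high, at 0.656 per base and so near the limit of duplicate removal, and exceeded Pdgfrb by a log2 ratio of 3.84 ± 0.23, 14.3-fold per kb, or 37.7-fold with coding length. Pdgfd, another ligand of this receptor, had 309.4 ± 14.1 per kb. Pdgfa and Pdgfc, ligands of the alpha receptor, had 121.8 ± 10.6 and 24.0 ± 9.50 per kb. The alpha receptor gene Pdgfra, a fibroblast marker, had normalized counts of 196, 203 and 258, and 33.2 ± 5.15 per kb. Pdgfrb exceeded Pdgfra in each mouse by a small log2 ratio of 0.47 ± 0.12, 1.39-fold per kb. Rgs5 exceeded Pdgfrb in each mouse by 2.93-fold per kb, a log2 ratio of 1.55 ± 0.27, and by 13.6-fold with coding length. Cdh5 exceeded Pdgfrb by 15.6-fold and Tagln by 6.10-fold per kb, the latter by 3.81-fold with coding length.

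The subunits of the ATP-sensitive potassium channel were all present. The pore gene Kcnj8 and the regulatory gene Abcc9 are neighbours on chromosome 6, 16247 bases apart on the minus strand of GRCm39. Abcc9 exceeded Kcnj8 in each mouse by a log2 ratio of 0.38 ± 0.18 (SD, n = 3), 1.30-fold per kb of canonical transcript, but the ratio was 0.055 with joined exons and turned to -0.19 with coding length, alternatives chosen after seeing the data, so the order of the 2 genes is not settled. Both were lowest in mouse 2. Kcnj11, the pore gene of the channel in cardiomyocytes and pancreatic beta cells, had normalized counts of 368, 341 and 261, and 102.9 ± 17.7 per kb. It was higher than Kcnj8 in each mouse, by 2.77-fold, a log2 ratio of 1.47 ± 0.44. Abcc8, the other sulfonylurea receptor gene, had normalized counts of 50, 68 and 87, and 13.8 ± 3.73 per kb, the lowest of the 4 subunits. Cardiomyocyte genes were abundant in these libraries, and whether the RNA of Abcc9 and Kcnj8 came from pericytes or from other cells was not tested.

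The place of Rgs5 in the R4 family of G protein regulators depended on the length used. Rgs3 had 2072, 1729 and 2047 normalized counts in mice 1, 2 and 3, and 501.4 ± 49.2 per kb (SD, n = 3), 3.74-fold above Rgs5 by canonical transcript. Rgs16 had 248.8 ± 45.5 per kb, also above Rgs5, and Rgs2 had 94.6 ± 18.3. With coding length, which was chosen after seeing the data, the log2 ratio turned to -0.60 for Rgs3 to Rgs5 and to -0.080 ± 0.18 for Rgs16 to Rgs5, the latter within its spread. The remaining listed members, Rgs4, Rgs18 and Rgs8, were low, with 8.25 ± 2.21, 1.47 ± 0.489 and 0.433 ± 0.068 per kb, and Rgs1 and Rgs13 were not listed. Higd1b was the lowest of the 3 listed HIG1 genes. Higd2a had 665.1 ± 33.8 and Higd1a, the widely expressed relative, 134 ± 4.65 per kb, and Higd1c was not listed. Higd1a exceeded Higd1b by 11.3-fold, a log2 ratio of 3.50 ± 0.50, and by 22.5-fold with coding length.

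For each contractile member a gene of the same family that is active in many cell types was far more abundant. Actb, the cytoplasmic beta-actin gene, had 1422, 1548 and 1444 normalized counts in mice 1, 2 and 3, and 766.3 ± 35.1 per kb (SD, n = 3). It exceeded Acta2 by 30.8-fold in mouse 1, 17.6-fold in mouse 2 and 9.98-fold in mouse 3, a log2 ratio of 4.13 ± 0.81. The ratio was smallest in mouse 3, where Acta2 was highest. Actb had a CV of 4.57%, at 0.766 per base. The striated muscle actins Actc1 and Acta1 had 271.7 ± 16.4 and 250.6 ± 22.2 per kb, and Actg1 had 107 ± 6.13, a value that is uncertain because 26.8% of its read-length windows occur elsewhere in the genome as well. Actg2, the smooth muscle gamma-actin gene of gut and bladder, had normalized counts of 3, 4 and 8. Tagln2, the transgelin of non-muscle cells, had normalized counts of 1073, 1144 and 1095, and exceeded Tagln by 9.70-fold, 5.17-fold and 3.02-fold per kb in mice 1, 2 and 3, on average 5.33-fold, or 3.39-fold with joined exons. Tagln3, a neuronal gene, had only 9.40 ± 4.89 per kb. The calponins Cnn3 and Cnn2, which are not restricted to smooth muscle, had 589.4 ± 32.1 and 478.2 ± 20.6 per kb, where Cnn1 had 2.33.

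The non-muscle myosins shared part of the order seen in Myh11. Myh9, which encodes non-muscle myosin IIA, had 1511, 1896 and 2270 normalized counts in mice 1, 2 and 3, and 254.4 ± 51.0 per kb (SD, n = 3). Myh10, which encodes non-muscle myosin IIB, had 599, 925 and 1059, and 110.3 ± 30.3 per kb. Both were lowest in mouse 1 and highest in mouse 3, with a smaller difference than Myh11. Myh14, which encodes non-muscle myosin IIC, had 492, 415 and 417, and 66.6 ± 6.62 per kb, and was highest in mouse 1. Myh9 exceeded Myh11 by 42.9-fold, 14.1-fold and 8.33-fold in the 3 mice, on average 17.2-fold, or 9.95-fold with joined exons. The ratios of single genes given here, of growth factor genes, channel subunits, regulators, Cdh5 and contractile relatives, were chosen after the values had been seen, and so were the other lengths tried for them. A sign-flip test was run on 12 of these ratios and gave 0.25 for each, the smallest p that 3 mice allow, so nothing is read from it. The limit set by duplicate removal was closer for the abundant relatives than for the members, with 0.766 per base for Actb and 0.622 for Tagln2 against 0.134 per base for Rgs5, the highest member. The effect of this limit on the ratios and on the spread between mice was not tested.

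**Figure D3:**
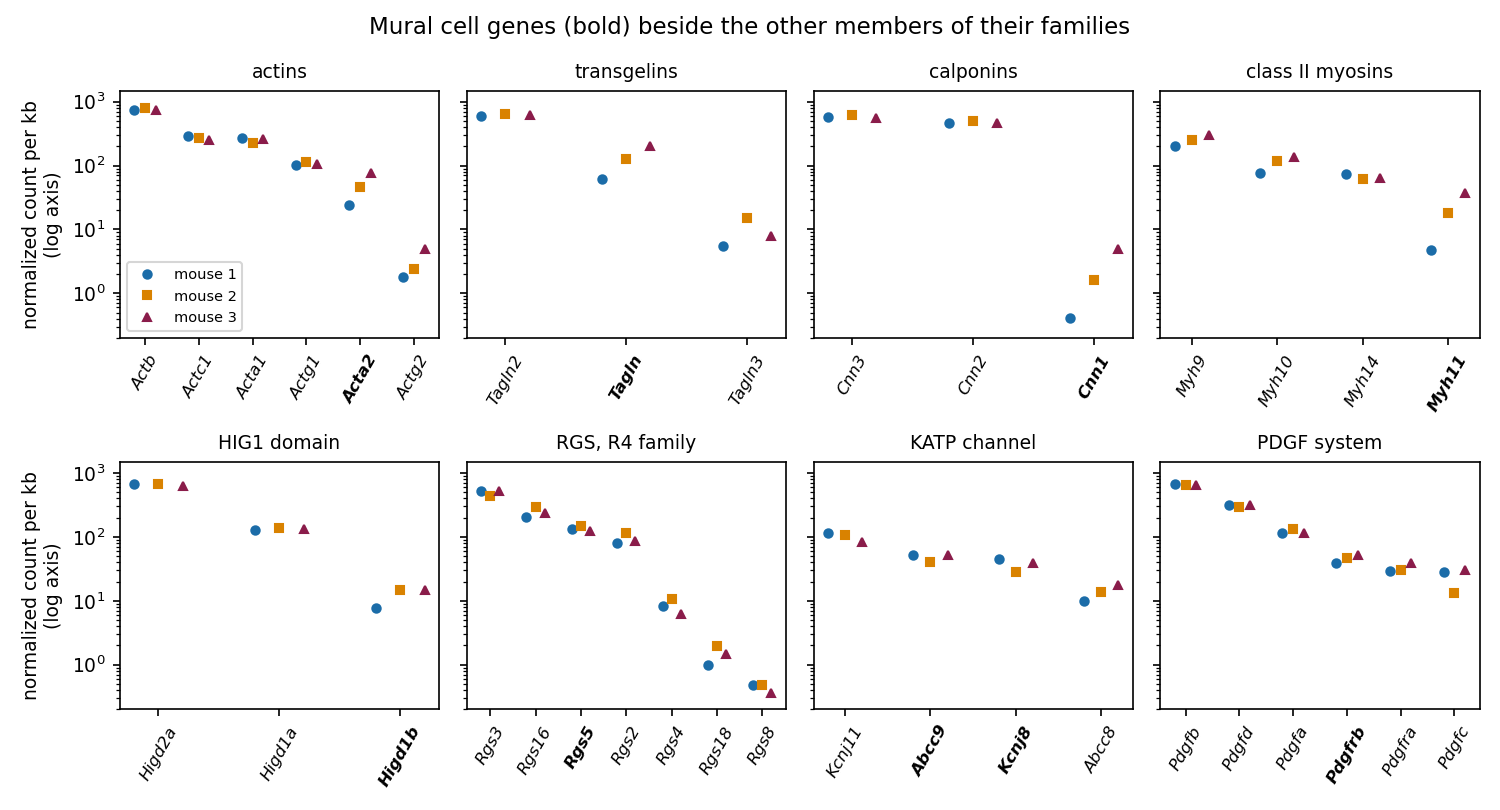
Level of the mural genes (bold) and of the other genes of their families, as normalized count per kb of canonical transcript on a log axis, with a symbol for each of the 3 mice. Actb, Tagln2, Cnn3, Myh9, Higd2a, Rgs3, Kcnj11 and Pdgfb are the highest of their families, and the symbols of Acta2, Tagln, Cnn1 and Myh11 are spread from low in mouse 1 to high in mouse 3.

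Further genes used as mural markers were taken as separate lists. The 12 further pericyte genes had a median of 37.7, 36.1 and 50.8 per kb in mice 1, 2 and 3, and their normalized counts summed to 3509, 3757 and 3824. This sum, with a CV of 4.49%, is carried in large part by Mcam, and single genes varied more, with a median CV of 19.6% in this list. Mcam, which encodes the adhesion molecule CD146 and is also expressed by endothelial cells, was the highest of them with 540.5 ± 47.6 per kb (SD, n = 3), followed by the ADP-ribosyltransferase family gene Art3 with 389.1 ± 64.8 and Cox4i2, a subunit of cytochrome c oxidase, with 234.1 ± 66.0. Ednra, an endothelin receptor gene, had 11.6 ± 1.22 per kb, and the transcription factor gene Tbx18 was the lowest with 7.22 ± 1.69 per kb. The 13 further smooth muscle genes had a median of 64.3, 78.7 and 118.9 per kb and summed to 8135, 8144 and 8393. Their median was lowest in mouse 1 and highest in mouse 3, while the sum, with a CV of 1.78% where the median CV of single genes was 21.1%, is carried by abundant genes such as Tpm1 at 0.881 per base, near the limit of duplicate removal. Taken gene by gene, the median log2 ratio of mouse 3 to mouse 1 was only 0.12, and 9 of the 13 genes were higher in mouse 3. Tpm1, a tropomyosin gene of striated and smooth muscle, was the highest with 881.3 ± 31.3 per kb, followed by the smoothelin gene Smtn with 524.4 ± 12.5 and Mustn1 with 416.9 ± 64.1 per kb. The lowest were Actg2 and the leiomodin gene Lmod1, the latter with normalized counts of 4, 12 and 11. With these further lists the log2 ratio of pericyte to smooth muscle medians was -1.04 ± 0.24 (SD, n = 3), so its sign depended on which markers were used. The further smooth muscle list includes genes shared with striated or cardiac muscle, such as Tpm1 and Myocd. Cardiomyocyte genes were abundant in these libraries, so this ratio cannot be read as a comparison of mural cells alone.

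Contractile genes of smooth muscle are known targets of serum response factor, which acts with cofactors of the myocardin family. Srf had 1007, 1012 and 1057 normalized counts in mice 1, 2 and 3, and 248.7 ± 6.68 per kb (SD, n = 3). Its level was nearly even between mice, with a CV of 2.69%. Myocd, which encodes myocardin, the cofactor of smooth and cardiac muscle, had normalized counts of 65, 110 and 111, and 18.5 ± 5.11 per kb. The widely expressed cofactor genes Mrtfb and Mrtfa had 128.2 ± 13.2 and 108.9 ± 13.4 per kb, with normalized counts of 1097, 971 and 1194 for Mrtfb and 389, 480 and 491 for Mrtfa. Myocd was the lowest of the 4 genes. Mrtfa was lowest in mouse 1 and highest in mouse 3, and Mrtfb was lowest in mouse 2. For Srf, counting alone would give a CV of 3.12%, above the CV measured. Myocd was lowest in mouse 1 and had nearly the same value in mice 2 and 3. No common order of the mice is read from these genes. A relation to the smooth muscle members was not tested.

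The promoters of the members were searched for the CArG box, the sequence that serum response factor binds. A link of this sequence to the variation of the members between mice was not tested. Promoter sequences of 250 bases before the start of the gene came from RefSeq, build GRCm38.p6, which holds entries for 6 of the 10 members, Rgs5, Kcnj8, Abcc9, Cspg4, Acta2 and Cnn1. The smooth muscle genes Tagln and Myh11 had no entry and were not searched. The box was taken as 10 bases, CC, a core of 6 bases that are A or T, and GG, which reads as the same pattern on both strands, and a looser form allowed 1 core base to be G or C. Of 32851 promoters, 1.47% hold the strict form and 8.59% the strict or the looser form. None of the 6 members holds the strict form, and Acta2 alone holds the looser form, CCCTATATGG at position -84 and CCTTGTTTGG at position -34 from the start. Acta2 and Cnn1 are shown as the contractile members with an entry, Acta2 from chr19:34255374-34255623 on the minus strand and Cnn1 from chr9:22099003-22099252 on the plus strand, with the boxes in capitals.
Acta2: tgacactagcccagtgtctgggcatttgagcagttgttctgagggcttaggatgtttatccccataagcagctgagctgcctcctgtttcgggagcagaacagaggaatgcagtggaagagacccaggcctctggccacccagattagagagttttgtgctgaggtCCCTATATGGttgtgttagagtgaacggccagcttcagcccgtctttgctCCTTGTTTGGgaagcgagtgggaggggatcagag
Cnn1: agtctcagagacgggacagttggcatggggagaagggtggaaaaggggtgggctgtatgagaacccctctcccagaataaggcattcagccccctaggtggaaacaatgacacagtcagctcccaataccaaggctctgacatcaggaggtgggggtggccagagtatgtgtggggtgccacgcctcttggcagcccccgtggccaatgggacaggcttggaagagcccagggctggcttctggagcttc
A match describes these letters only, and binding was not measured.

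The positions of the members in GRCm39 are spread over 7 chromosomes. Rgs5 (ENSMUSG00000026678) lies at chr1:169483070-169523382 on the plus strand, Pdgfrb (ENSMUSG00000024620) at chr18:61178222-61218133 on the plus strand, and Higd1b (ENSMUSG00000020928) at chr11:102726675-102728866 on the plus strand. Kcnj8 (ENSMUSG00000030247) lies at chr6:142510563-142517340 and Abcc9 (ENSMUSG00000030249) at chr6:142533588-142648041, both on the minus strand. Chromosome 9 holds Cspg4 (ENSMUSG00000032911) at chr9:56772317-56807154 and Cnn1 (ENSMUSG00000001349) at chr9:22010512-22020926, both on the plus strand, and Tagln (ENSMUSG00000032085) at chr9:45840917-45847356 on the minus strand. Acta2 (ENSMUSG00000035783) lies at chr19:34218490-34232990 and Myh11 (ENSMUSG00000018830) at chr16:14012399-14109236, both on the minus strand. The canonical transcripts range from 1159 bases in 3 exons for Higd1b to 8154 bases in 10 exons for Cspg4, and that of Myh11 has 6549 bases in 41 exons. No window of read length, 72 bases, of 9 members occurs exactly at another place of the genome, and 0.176% of the windows of Abcc9 do, so close relatives such as the actins do not share such windows with the members. Exons of genes on the opposite strand cover 66.7% of the exonic bases of Tagln, 35.1% of Cnn1, 23.8% of Higd1b and 9.33% of Acta2, and no exon of another gene lies on the same strand. The authors counted reads by strand. Pcsk7, a gene opposite Tagln, had 767, 790 and 829 normalized counts in mice 1, 2 and 3 with a CV of 3.94%, against 54.6% for Tagln, and Elof1, opposite Cnn1, had 470, 485 and 451. Stambpl1, opposite Acta2, had 42, 54 and 64, with a CV of 20.7%, and was lowest in mouse 1 and highest in mouse 3 as Acta2 was.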

How the data were processed

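Ribosome-bound RNA of 3 mice was read from a single end over 72 bases. The authors trimmed reads with Trimmomatic 0.39, aligned them with STAR 2.7.11a to mm39, discarded duplicates with Picard 3.1.1 as well as ribosomal, mitochondrial and multi-mapping reads, counted the rest by strand with featureCounts 2.0.4 and normalized with DESeq2 1.36.0. The deposited values have the unit score, because the authors divided counts by size factors and rounded them to whole numbers. No count model was run on them.

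Levels are means and SDs of deposited values over mice. Values per kb were divided by the length of the Ensembl canonical transcript in the GENCODE annotation of GRCm39, found for 99.4% of genes. Ratios were taken within each mouse. Neighbouring genes were compared by exact two-sided sign-flip permutation. Alternatives were other lengths, scalings, list summaries, filters, marker lists, and leaving out each mouse. The named genes are the members, the genes of their families and pathways, and of each marker list the 3 highest and 2 lowest per kb, as far as given, and 1 marker list is not reported here. The members and lists were chosen with earlier results of these data known. Genes singled out later are named as such, and Xist, Ddx3y, Pcsk7, Elof1 and Stambpl1 were added after values had been seen. The estimate of the worth of 1 read, scaling and tests were tested on simulated data. Computations used Python 3.11.15, numpy 2.4.6, pandas 2.3.3, scipy 1.17.1, matplotlib 3.10.9 and BLAST 2.17.0.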

Additional observations from a re-analysis of the deposited data

How the results depend on the processing

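The log2 ratio of pericyte to smooth muscle medians, 0.51, kept its sign with joined exons (0.19), coding length (0.25) and no division by length (1.02). The sign was also kept with the geometric mean (1.06) and with the sum (0.77) of each list. It changed with the further marker lists, partly shared with striated muscle, where the ratio was -1.04. Without Cnn1, an alternative chosen after seeing the data, the ratio was -0.058. With each mouse left out the ratio lay between -0.020 and 0.91. Without Cnn1 and Higd1b, also chosen after seeing the data, it was 0.064. The log2 ratio of the mural to the endothelial list, -4.14, moved to -3.75 with the joined exons of all transcripts as length, and lay between -4.29 and -3.99 with each mouse left out. The median percentile of the members among all genes per kb, 40.1, moved to 44.8 with joined exons, 27.8 with coding length, 44.0 with no division by length, and 24.4 among genes with at least 10 in every mouse. The number of neighbouring pairs in the same order in every mouse, 2, became 4 with no division by length, 6 with coding length, chosen after seeing the data, and 4 to 5 with a mouse left out, where fewer mice have to be in order. The number of members with a CV over 20%, 2, became 5 at a mean of at least 100, where more genes enter, and 1 to 2 with a mouse left out. The number of genes of the whole table with such a CV, 749, became 1273 at a mean of at least 100 and 455 to 921 with a mouse left out. Beyond these changes in the genes and mice that enter, the cause was not tested. With coding length, also chosen after seeing the data, the log2 ratio changed sign for Rgs3 to Rgs5 (-0.60), Rgs16 to Rgs5 (-0.080) and Abcc9 to Kcnj8 (-0.19). Without mouse 3, the mean of Cnn1 went from 5.67 to 2.5 and that of Myh11 from 129.7 to 74.5. Other scalings changed the mean of Cnn1, the member that moved most in proportion, to 5.63. No paired analysis was possible because the libraries form 1 group.

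With 3 mice of 1 condition and no input library, differences between conditions, enrichment and the cell of origin could not be measured. Counting error is wide for Higd1b and Cnn1, whose highest values were 17 and 12. The effect of duplicate removal on ratios to abundant genes was not tested. Transcript lengths come from an annotation newer than that used by the authors, and which transcripts were present was not tested.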
